A study of Mus musculus with 12 samples.

Results

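Hippocampal RNA of 4 5xFAD mice given TPPU was compared with that of 4 non-transgenic littermates given vehicle, to describe what still set treated transgenic tissue apart from non-transgenic tissue. These 8 mice were chosen from the study's 12 by their labels alone. The other 4, 5xFAD mice given vehicle, are set beside them for scale. Treated mice drank TPPU at 3 mg/kg, dissolved in 1% polyethylene glycol 400, from an age of 2 months and for 2.5 months, and both vehicle groups received 1% polyethylene glycol 400 alone. Both groups of the comparison share the tissue, the vehicle and the label male, and they differ in both genotype and drug, so the part of each cannot be told apart here. Non-transgenic mice given TPPU were not analysed here. The 5xFAD line carries human amyloid precursor and presenilin transgenes with familial Alzheimer's disease mutations, driven in neurons by a Thy1 promoter, and deposits amyloid early in life. The transgenes' own transcripts were not analysed here, so the genotype labels were not checked on them. Samples are numbered 1 to 4 in each group. Nothing in the labels says that each is a separate animal, so the p-values measure the spread between samples. Y-linked genes differed strongly between samples of each group, as given below. How much of the spread is technical was not tested.

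TPPU blocks the soluble form of epoxide hydrolase. That enzyme degrades epoxy fatty acids, lipid mediators that dampen inflammation, to less active diols. In amyloid-bearing brain, microglia gather around plaques and take on a state in which TREM2, a lipid-sensing receptor, signals through its adaptor TYROBP, and in which lysosomal enzymes, phagocytic receptors and chemokines are made at a higher level. C1q, the complement component that opens the classical pathway and tags synapses and debris, is made in brain mainly by microglia. Astrocytes near plaques become reactive and make intermediate filaments and protease inhibitors. The transcription factor PU.1 maintains the microglial programme by binding purine-rich sites near its target genes.

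The 12 genes with the smallest p among those estimated higher in treated 5xFAD mice were C1qc, Csf2rb, Pik3cg, Lag3, Ccl4, Grn, Trem2, Tyrobp, Fcer1g, Ctss, Slamf9 and Csf1r, most of them genes of microglia and other myeloid cells. Promoters of 7 of these 12 matched an entry in RefSeq (build GRCm38.p6, 250 bases before to 50 bases after the gene's start). A core PU.1 motif, GAGGAAGT or its reverse complement ACTTCCTC, was searched on both strands, and 4 of the 7 held it (C1qc, Ctss, Slamf9 and Pik3cg). It stood in 3.20% of all 32851 promoters of this length. Counted by gene, it stood in 3.69% of the 27025 genes with a promoter and in 25 of the 547 tested genes with one. A match describes letters only. Shown here, because the results turn on these genes, are the promoters of C1qc (chr4:136892865-136893164, minus strand), Ctss (chr3:95526536-95526835, plus strand), Slamf9 (chr1:172475110-172475409, plus strand) and Trem2 (chr17:48346151-48346450, plus strand), each written 5′ to 3′ with the motif in capitals where it occurs. The Trem2 window holds no match.
C1qc: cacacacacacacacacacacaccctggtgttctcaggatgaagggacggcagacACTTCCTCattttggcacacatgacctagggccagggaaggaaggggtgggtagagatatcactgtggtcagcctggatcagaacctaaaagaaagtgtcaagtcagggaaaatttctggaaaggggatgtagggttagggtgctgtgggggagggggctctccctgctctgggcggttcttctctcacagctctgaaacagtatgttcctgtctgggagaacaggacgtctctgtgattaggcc
Ctss: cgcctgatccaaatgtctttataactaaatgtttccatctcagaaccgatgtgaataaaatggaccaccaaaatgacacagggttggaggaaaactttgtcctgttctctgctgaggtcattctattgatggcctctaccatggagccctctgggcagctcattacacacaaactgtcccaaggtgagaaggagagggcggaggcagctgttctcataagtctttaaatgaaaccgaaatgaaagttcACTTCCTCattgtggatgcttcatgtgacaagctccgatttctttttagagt
Slamf9: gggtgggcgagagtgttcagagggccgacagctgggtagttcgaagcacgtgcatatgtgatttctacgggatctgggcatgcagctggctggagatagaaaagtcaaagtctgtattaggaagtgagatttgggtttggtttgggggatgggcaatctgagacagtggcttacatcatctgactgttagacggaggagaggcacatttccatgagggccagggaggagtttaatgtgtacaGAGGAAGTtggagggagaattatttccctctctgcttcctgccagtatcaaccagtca
Trem2: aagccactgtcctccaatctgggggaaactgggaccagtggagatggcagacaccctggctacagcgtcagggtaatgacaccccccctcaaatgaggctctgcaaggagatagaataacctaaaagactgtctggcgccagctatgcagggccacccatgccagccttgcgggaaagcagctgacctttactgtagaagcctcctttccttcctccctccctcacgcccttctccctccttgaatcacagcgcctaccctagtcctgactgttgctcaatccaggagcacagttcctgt

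The panel counts transcripts with colour-barcoded probes and no amplification, and the deposited table lists 756 genes as counts scaled by housekeeping genes. A mean over the 12 mice of 20 normalized counts or more let 695 of them into the tests, and 61 fell short. Some genes, such as Ccl4 and Il1a (non-transgenic means 15.4 and 18.7), reached it only through the 5xFAD mice. A count of higher estimates among low genes is partly set by this. Probe totals ran from 1050334 to 1314362 counts per mouse. The scaling factor that the authors' values imply ran from 0.871 to 0.993 in non-transgenic and from 1.03 to 1.09 in treated mice, with no overlap (exact two-sided permutation p = 0.0286, the smallest that 70 arrangements of 4 against 4 can give). Treated values were therefore multiplied by more than non-transgenic ones. The Y-linked genes Uty and Kdm5d read 366 to 518 and 306 to 369 in 6 mice and only 15.2 to 33.5 and 14.2 to 22.8 in the 6 others, against a label of male for all. Mice 1 and 4 of both compared groups had the high values and mice 2 and 3 the low ones, so this division is balanced between groups. Non-transgenic mouse 4 read 16461 for Ttr, a choroid plexus transcript, where the 7 other mice compared read 77.1 to 284. Neuronal Syn2 (8461 to 14526), astrocytic Slc1a3 (7527 to 9333) and myelin Mal (4924 to 9357) were present in all 8 mice, and no marker of hippocampus itself was among the lists.

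Treated mouse 2 was the lowest treated mouse in most microglial genes. Dixon's outlier limit, applied further below, flagged it for no microglial gene or list. It was flagged there only as the lowest treated mouse for the growth factor list, with a median of 0.037 (log2). For mouse 2 the total of 1070611 counts and the factor of 1.07 lay within the range of its group. Neuronal and myelin genes were present at the levels given below. Of the 19 tested myelin genes, treated mice 1 to 4 lay below all non-transgenic mice in 7, 10, 0 and 17. Of all 695 tested genes they did so in 57, 157, 97 and 130. For microglial genes mouse 2 lay near the non-transgenic mice. Among the 18 tested genes of a list of plaque-associated microglia, treated mice 1, 2, 3 and 4 exceeded all 4 non-transgenic mice in 14, 4, 18 and 16 genes. Mouse 2 lay inside the non-transgenic range in 11 of the 18 and below it in 3, and it was the lowest treated mouse in 17. Treated mouse 3 was the highest treated mouse in all 18. Over all 695 tested genes the 4 treated mice exceeded every non-transgenic mouse in 238, 137, 286 and 212. Mouse 2 was inside the non-transgenic range in 401 of these genes and the lowest treated mouse in 294. Mouse 3 was the highest treated mouse in 325. Results are given with all 4 treated mice and, where it matters, without mouse 2. Leaving out the lowest mouse raises a difference by construction, so the second set describes the other 3 mice and is no second test. Mouse 2 was picked out by these same values, so p-values and calls without it, here and below, are no support.

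With all 4 treated mice, no gene passed limma's test at a Benjamini-Hochberg adjusted p under 0.05, higher (0.0%) or lower (0.0%), and the smallest adjusted p was 0.167. At an unadjusted p under 0.05, 95 genes were higher (13.7%) and 7 were lower (1.01%). All 4 treated mice lay above all 4 non-transgenic mice in 43 genes (6.19%) and below them in 6 (0.863%). In the same fit, vehicle-treated 5xFAD mice had 130 genes called higher than non-transgenic mice (18.7%) and 0 called lower, with 7 lower at an unadjusted p under 0.05. The comparisons share the 4 non-transgenic mice, so their values are set side by side only.

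The absence of calls does not show equal expression. The 95% interval of the difference lay within 1.5-fold either way in 368 genes (52.9%), and it included a 2-fold higher level in 123 (17.7%) and a 2-fold lower level in 19 (2.73%). Estimates lay above 0 in 438 genes (63.0%), were more than 2-fold higher in 35 genes (5.04%) and were more than 2-fold lower in 1, Ttr (0.144%), whose estimate rests on non-transgenic mouse 4. The excess of higher over lower estimates moved with scaling. The median over all genes was 0.06 (log2) as deposited, -0.02 after centring each mouse on its median, -0.07 after quantile normalization, -0.14 without scaling and 0.02 at equal totals, and at an unadjusted p under 0.05 the split between higher and lower was 86 to 22, 62 to 53, 49 to 125 and 85 to 17 under those 4 settings.

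**Figure D1:**
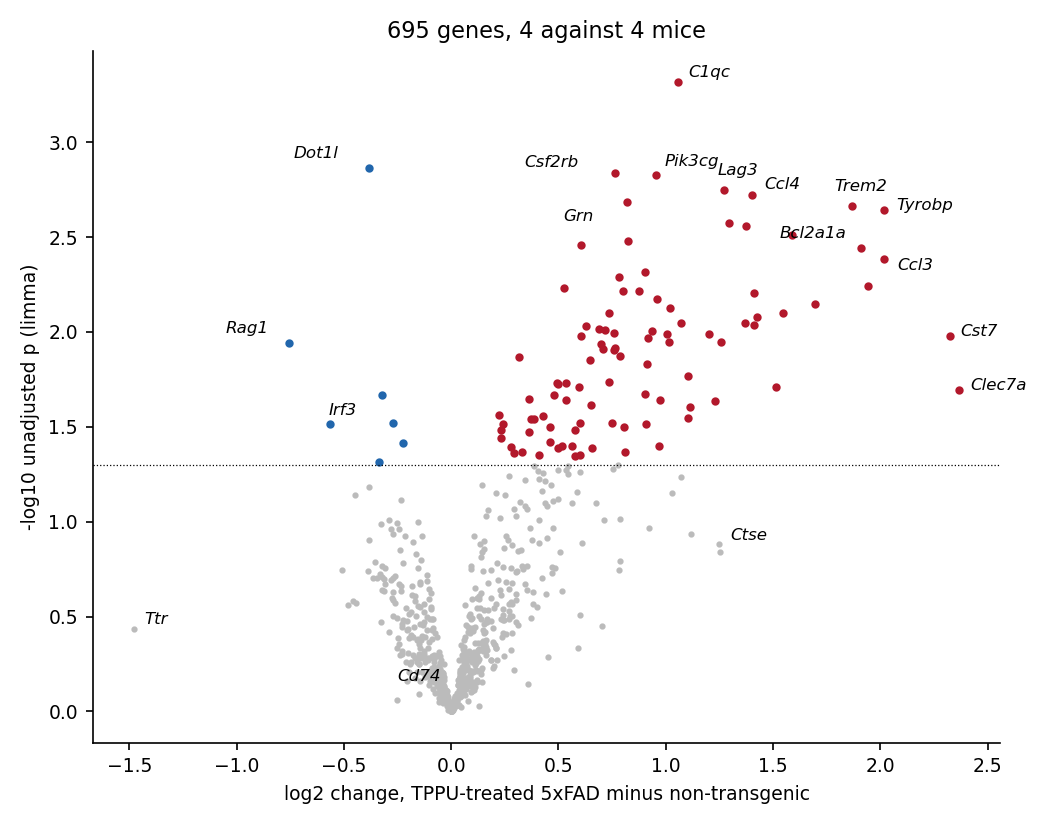
Log2 difference between the 4 TPPU-treated 5xFAD and the 4 non-transgenic mice (horizontal) against -log10 of limma's unadjusted p (vertical) for 695 genes. Points above the dotted line have an unadjusted p under 0.05, 95 of them higher (red) and 7 lower (blue), and no gene passed after adjustment.

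Without treated mouse 2, limma called 59 genes higher (8.49%) and 1 lower (0.144%), with a smallest adjusted p of 8.99e-05. Without any one of the 11 other mice it called 0. Mouse 2 was picked out by these same values, so the calls without it are descriptive only. The lower gene was Dot1l. Of the genes named in the text, 40 were among these 60. The folds of Cst7, Clec7a and Bcl2a1a moved from 5.01, 5.16 and 3.75 with all mice to 9.55, 10.7 and 5.64 without mouse 2. A fit that weights each sample by its own spread, with all 12 mice kept, called 52 genes higher (7.48%) and 3 lower (0.432%), the latter Dot1l, Rag1 and Dock1. In that fit the estimated weights of treated mice 1 to 4 were 3.78, 0.672, 0.520 and 1.02. Treated mouse 3 thus weighed less than mouse 2, and vehicle-treated 5xFAD mouse 1 weighed least of all, at 0.343. Treated mouse 1 weighed most of all. The weights were estimated from these same values and then taken as known, so the p-values of that fit do not carry their uncertainty. Both fits called 42 genes in common, but they share 11 mice, so the overlap is no support. Of the 60 genes called without mouse 2, 55 were also called after median centring, with that mouse left out there too. Median centring of all mice called 0.

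**Figure D2:**
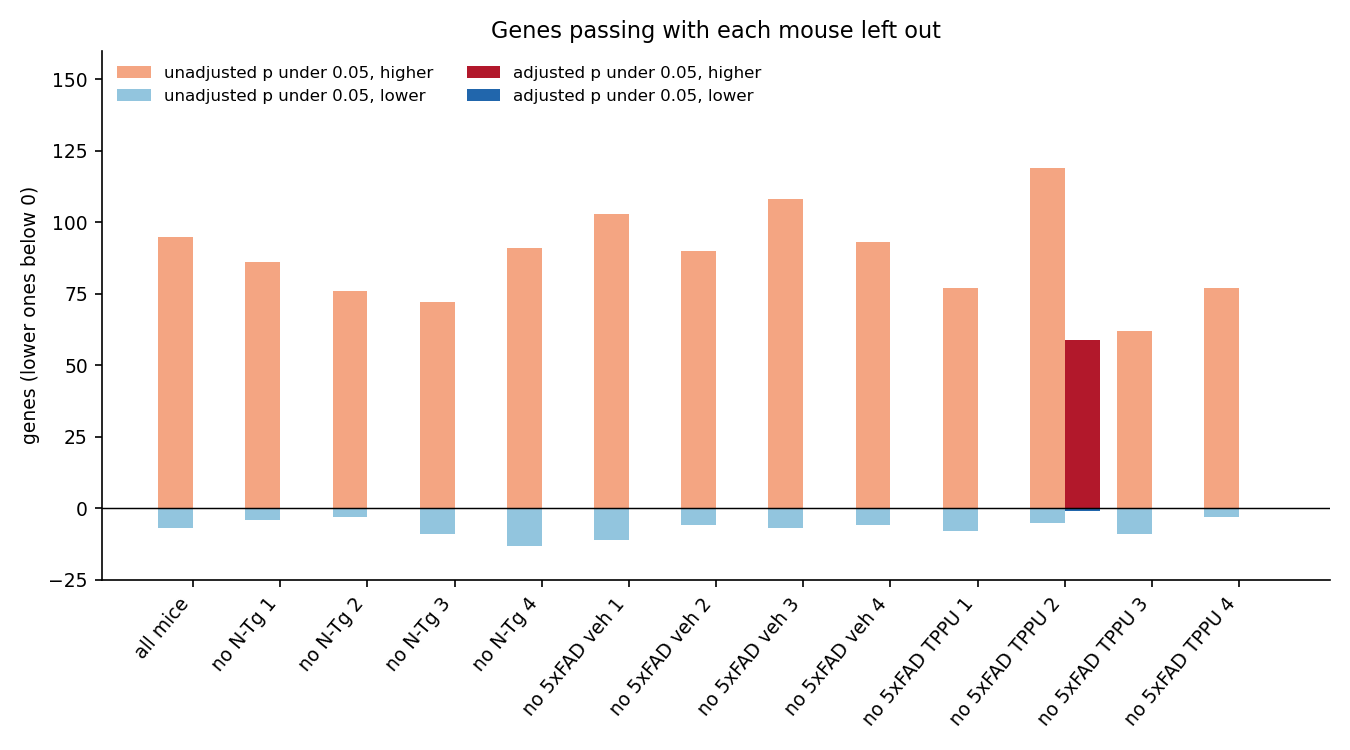
Number of genes (vertical, lower ones drawn below 0) passing at an unadjusted (pale) or adjusted (dark) p under 0.05 in limma, for all mice and with each of the 12 mice left out (horizontal). Adjusted calls appear only without TPPU-treated mouse 2, with 59 higher and 1 lower.

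The 18 tested genes of plaque-associated microglia had estimates above those of non-transgenic mice throughout. Their median difference between treated 5xFAD and non-transgenic mice was 1.41 (log2), against 0.06 over all genes, and it was 2.28 in vehicle-treated mice. All 18 estimates were above 0 as deposited, after median centring, quantile normalization and at equal totals, and 17 of 18 without scaling, where Fabp5, named after its value was seen, was at -0.048. The list's medians under these 4 other scalings were 1.21 to 1.37. Of the 18 genes, 10 had an unadjusted p under 0.05 beside the 13.7% of all genes. The median was 1.14 without treated mouse 3 and 1.75 without mouse 2. Without mouse 2 limma called 10 of the 18 higher, beside 8.49% of all genes. Within the mice with high Y-linked values the median was 1.28 and within the others 1.45. In bulk tissue, more cells of a type and more RNA per cell cannot be told apart. This list and those below were chosen with earlier results of these data known. Their counts beside all genes therefore describe the lists and test nothing.

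Tyrobp, the adaptor that carries the TREM2 signal, read 586, 476, 513 and 532 normalized counts in non-transgenic mice 1 to 4 and 2279, 626, 4591 and 3119 in treated mice 1 to 4. The groups did not overlap, although treated mouse 2 lay just above the highest non-transgenic mouse. Its mean was 2654 ± 1655 (SD, n = 4) under TPPU, 527 ± 45.7 in non-transgenic and 5251 ± 2605 in vehicle-treated 5xFAD mice. The estimated fold was 4.04 (95% interval 1.84 to 8.88, limma adjusted p = 0.167), and 6.07 without mouse 2. Trem2, the receptor itself, read 355, 201, 298 and 292 in non-transgenic and 991, 346, 2240 and 1449 in treated mice. Treated mouse 2 lay inside the non-transgenic range and the 3 others read several times above it. The Trem2 fold was 3.65 (1.77 to 7.52, limma adjusted p = 0.167) under TPPU and 8.04 (3.90 to 16.6, adjusted p = 0.00204) under vehicle.

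Genes of this state that read low in non-transgenic tissue divided the treated mice. Cst7, which encodes the cathepsin inhibitor cystatin F, read 9.54 to 18.3 in non-transgenic mice and 100, 9.60, 194 and 139 in treated mice. Clec7a, the fungal glucan receptor dectin-1, read 10.9 to 24.2 and then 124, 8.54, 306 and 146. Low values of both genes lie within or below the range that Uty and Kdm5d show in the mice with low values of them, 14.2 to 33.5 counts, and background subtraction was not given in the sources used here, so such values have no order. The same holds for every value of 33.5 or less given here, and a fold against such values is uncertain in size. Both genes were within or below that range in all non-transgenic mice and treated mouse 2 and above it in the 3 others. Itgax, the integrin CD11c, read 12.9 to 17.9 in non-transgenic mice and 49.0, 18.1, 105 and 50.4 in treated ones. Cd68, a lysosomal membrane protein, read 197 to 289 and then 803, 253, 1894 and 1089.

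The chemokine Ccl3 read 24.8 to 34.4 in non-transgenic mice and 108, 33.1, 337 and 193 in treated mice. Its fold of 4.05 (1.71 to 9.57, limma adjusted p = 0.175) became 6.24 without mouse 2. Ccl4, its close relative, read 9.86 to 18.9 and then 42.6, 22.4, 64.5 and 46.3. For Ccl4 treated mouse 2 exceeded all non-transgenic mice too, at a level near background. Mpeg1, a pore-forming protein of phagocytes, had a fold of 3.84 (limma adjusted p = 0.175), and 6.11 without mouse 2. Lilrb4a, an inhibitory receptor, had a fold of 2.92 and Siglecf, a sialic acid-binding receptor, of 2.39 (limma adjusted p = 0.175 each). For each of these 3 genes treated mice 1, 3 and 4 exceeded all non-transgenic mice and mouse 2 did not. Bcl2a1a, a survival gene of myeloid cells, read 52.6 to 80.2 in non-transgenic and 242, 71.5, 535 and 390 in treated mice. It belongs to a family of near-identical copies, so its probe may also read its relatives.

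**Figure D3:**
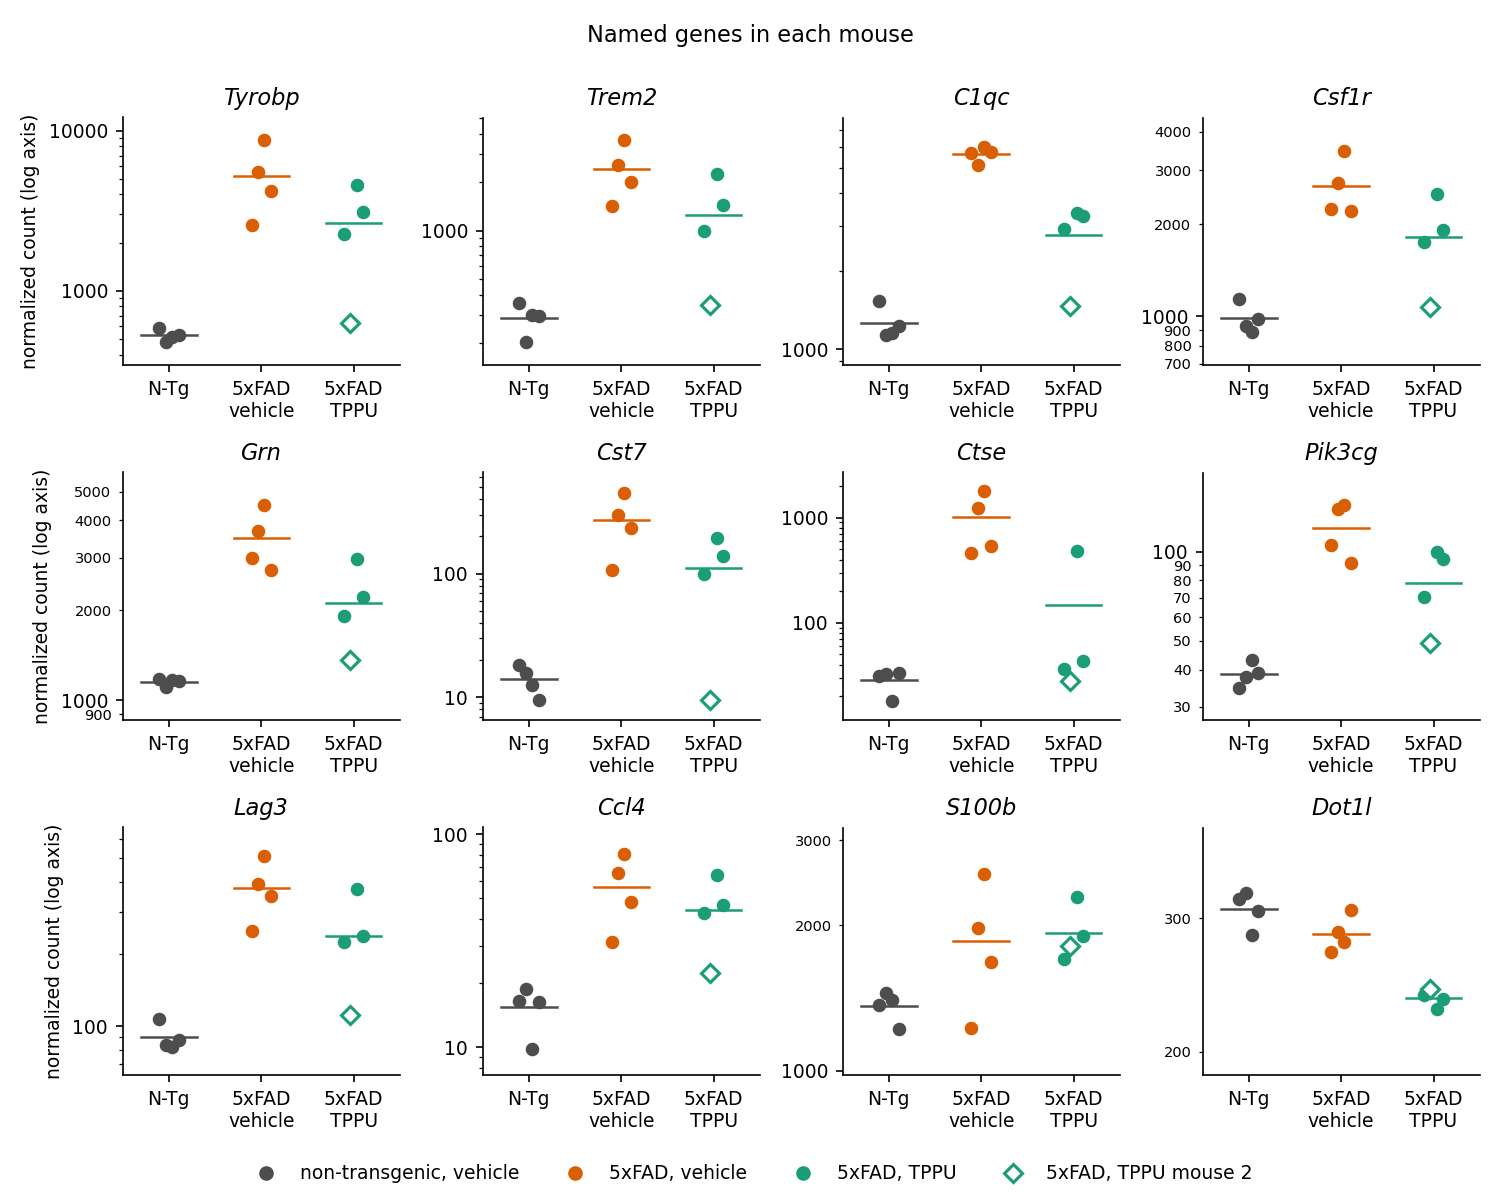
Normalized counts (vertical, log axis) of 12 named genes in each mouse of the 3 groups, with group means as lines and TPPU-treated mouse 2 as an open diamond. For Tyrobp mouse 2 reads 626 and the 3 other treated mice 2279 to 4591, while for S100b and Dot1l all 4 treated mice lie together.

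The 3 C1q genes of the classical complement pathway were also lowest in mouse 2 among treated mice. C1qc, 1 of the 3 chains of C1q, read 1542, 1134, 1157 and 1235 in non-transgenic mice and 2897, 1467, 3360 and 3268 in treated mice, and it had the smallest p of all genes. Treated mouse 2 lay inside the non-transgenic range and the 3 others lay at about the same level as each other. Its fold was 2.08 (1.49 to 2.91, limma adjusted p = 0.167), and 2.52 without mouse 2. In vehicle-treated 5xFAD mice C1qc read 5150 to 5995, above every treated mouse. C1qa, another chain, read 903 to 1186 and then 2334, 941, 4148 and 2847. C1qb, the remaining chain, read 1190 to 1584 in non-transgenic and 2861, 924, 2650 and 1494 in treated mice, so that treated mice 2 and 4 lay below the highest non-transgenic mouse.

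Among receptors and later components, C3ar1, the receptor for the C3a fragment, read 68.5 to 98.4 in non-transgenic mice and 208, 75.8, 411 and 292 in treated ones. C4a read 296 to 591 and then 903, 301, 1716 and 1038, and its probe may also read the near-identical C4b. C3, the central component, read 13.9 to 71.6 and then 105, 19.2, 353 and 86.5, with a fold of 2.38 whose interval ran from 0.711 to 7.99 (limma adjusted p = 0.566), and 3.92 without mouse 2. The list of 8 tested complement genes had a median of 1.08 (log2) under TPPU, 0.68 without treated mouse 3, and 1.98 under vehicle. Of the 8, 7 had estimates above 0 and 4 an unadjusted p under 0.05, beside 13.7% of all genes. The list's per-mouse medians were 1.21, -0.24, 1.75 and 1.34 in treated mice 1 to 4, against -0.19 to 0.29 in non-transgenic mice.

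Genes that mark homeostatic microglia were also estimated higher, by less. Of 12 homeostatic microglial genes all 12 estimates were above 0 as deposited and 10 without scaling. Their median was 0.58 (log2) under TPPU and 0.87 under vehicle. Of the 12, 8 had an unadjusted p under 0.05 and 7 were called without mouse 2, beside 13.7% and 8.49% of all genes. Csf1r, the receptor for the growth factor microglia need to survive, read 890 to 1137 in non-transgenic mice and 1753, 1075, 2501 and 1920 in treated mice. Its fold was 1.77 (1.26 to 2.48, limma adjusted p = 0.167). Cx3cr1, the receptor for neuronal fractalkine, read 1108, 978, 999 and 1105 and then 1646, 1197, 2600 and 1666, with no overlap between the groups. Tmem119, a microglia-specific membrane protein, differed less, with 573 to 628 in non-transgenic mice and 730, 616, 906 and 808 in treated mice, a fold of 1.25 (1.06 to 1.47, limma adjusted p = 0.184). P2ry12, the receptor that guides process movement to injury, had a fold of 1.37 (limma adjusted p = 0.266).

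Fcrls, an Fc receptor-like microglial gene, read 355, 355, 367 and 354 in non-transgenic mice and 516, 430, 857 and 725 in treated mice, and all 4 treated mice lay above. The fold was 1.70 (1.15 to 2.51, limma adjusted p = 0.177) under TPPU and 1.38 (0.932 to 2.04, adjusted p = 0.264) under vehicle, where values ran from 353 to 839. Gpr34, a lysophospholipid receptor, had a fold of 1.87 and Olfml3, a secreted matrix protein, of 1.94, each with a limma adjusted p of 0.175. Olfml3 was higher in 4 of 4 treated mice, and for Gpr34 mouse 2 (526) lay below the highest non-transgenic mouse (557).

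Of 16 pan-myeloid genes, all 16 estimates were above 0 as deposited, the lowest at 0.0043 (log2), and 14 to 15 under the 4 other scalings. Their median was 0.78 (log2) under TPPU and 1.49 under vehicle. Of the 16, 12 had an unadjusted p under 0.05 and 12 were called without mouse 2, beside 13.7% and 8.49% of all genes. Irf8, a transcription factor of the myeloid lineage, read 79.2 to 95.8 in non-transgenic mice and 208, 87.5, 318 and 226 in treated mice. Itgam, the integrin CD11b, read 139 to 192 and then 244, 208, 409 and 279, and here mouse 2 too lay above all non-transgenic mice. Dock2, which moves the myeloid cytoskeleton, had a fold of 1.84 (limma adjusted p = 0.175).

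The 27 tested genes of Fc receptors and phagocytosis had a median of 0.60 (log2) under TPPU and 1.27 under vehicle, with 2 estimates below 0. Of them, 15 had an unadjusted p under 0.05 and 14 were called without mouse 2, beside 13.7% and 8.49% of all genes. Fcer1g, the signalling chain shared by Fc receptors, read 220, 138, 176 and 165 and then 362, 223, 781 and 512, so that mouse 2 lay only just above the highest non-transgenic mouse. Pik3cg, the phosphoinositide kinase that serves chemokine receptors, read 34.8 to 43.0 in non-transgenic mice and 70.3, 49.1, 99.6 and 94.7 in treated mice. Its fold was 1.94 (1.36 to 2.75, limma adjusted p = 0.167). Fcgr2b, the inhibitory Fc receptor, read 97.3 to 223 and then 320, 124, 807 and 380. Cd14, a co-receptor for bacterial lipopolysaccharide, read 48.6 to 77.3 and then 129, 50.2, 177 and 178.

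A small set of genes was higher in treated mouse 2 as well. Grn, which encodes the lysosomal protein progranulin, read 1183, 1106, 1167 and 1165 in non-transgenic mice and 1922, 1365, 2984 and 2215 in treated mice, all above the non-transgenic range. Its fold was 1.77 (1.29 to 2.42, limma adjusted p = 0.167) against 2.96 under vehicle (adjusted p = 0.00204). Csf2rb, the chain shared by the receptors for GM-CSF, IL-3 and IL-5, read 29.6 to 38.7 and then 55.4, 44.8, 67.8 and 60.7. Lag3, an inhibitory receptor first known from lymphocytes, read 107, 83.4, 82.4 and 87.8 and then 225, 112, 372 and 239. Tgfb1, an anti-inflammatory cytokine, read 120 to 158 and then 230, 175, 432 and 223. In all 4 of these genes mouse 2 was nevertheless the lowest treated mouse.

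**Figure D4:**
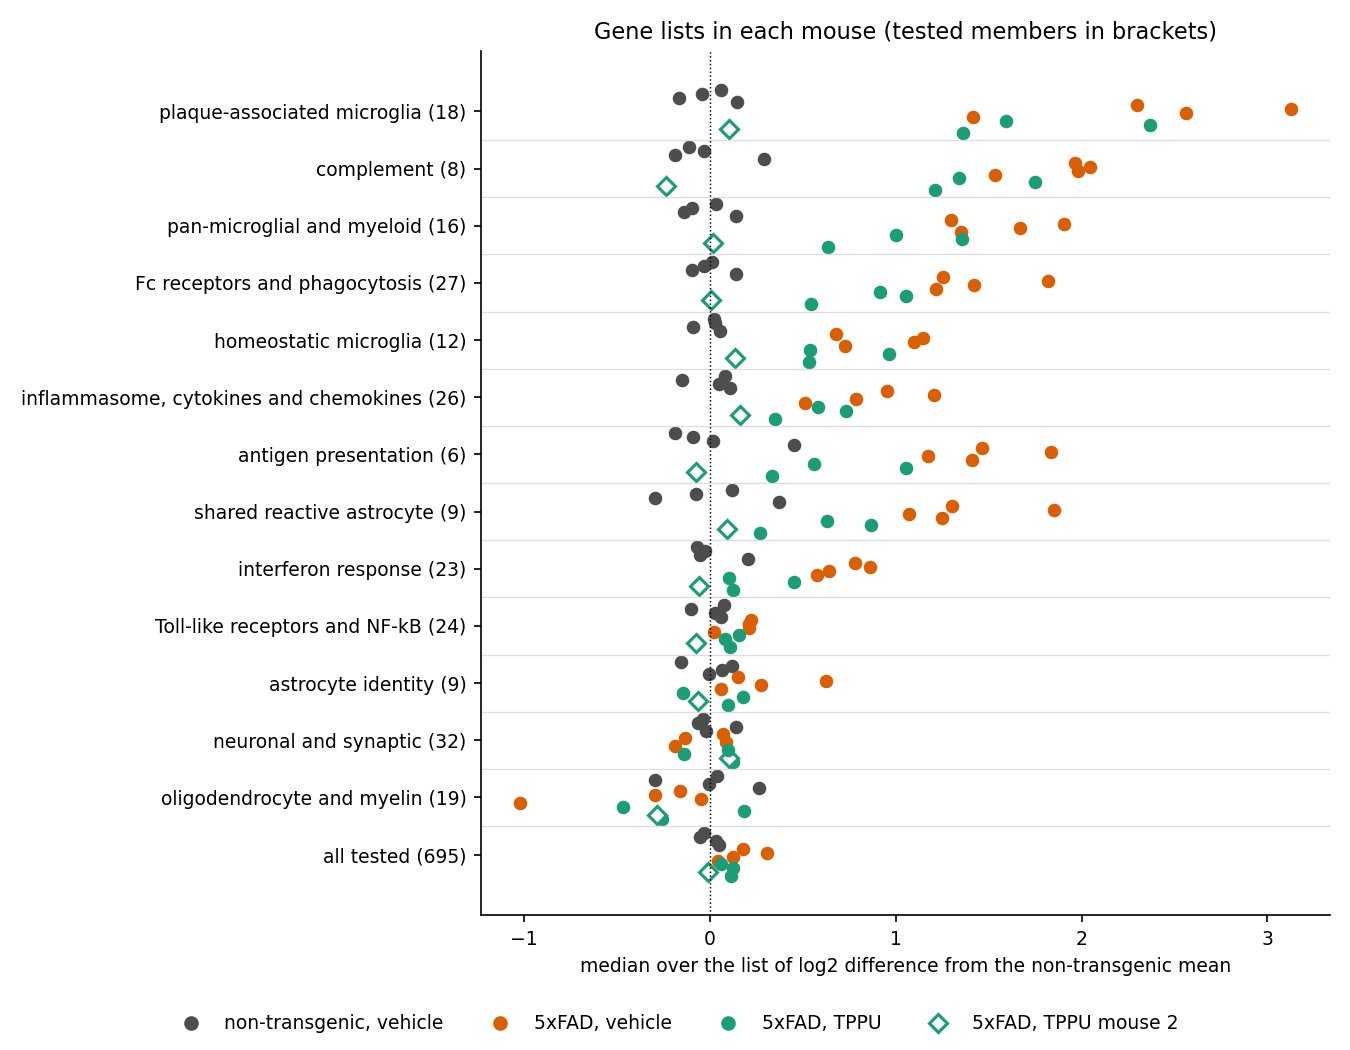
Median over each gene list of the log2 difference from the non-transgenic mean (horizontal) in each mouse, with the number of tested genes in brackets (vertical) and TPPU-treated mouse 2 as an open diamond. For plaque-associated genes mouse 2 sits at 0.10 and the 3 other treated mice at 1.36 to 2.37, while for neuronal genes the groups overlap.

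Antigen presentation and interferon genes differed less in treated than in vehicle-treated mice by their estimates, and the 2 differences from non-transgenic tissue share control mice. Of 6 tested antigen presentation genes, 2 had an unadjusted p under 0.05, Ctss and Cd86, beside 13.7% of all genes. The median was 0.34 (log2) under TPPU and 1.57 under vehicle. Without 1 mouse the former ran from 0.23 without treated mouse 3 to 0.54 without non-transgenic mouse 1, with 0.53 without treated mouse 2. Ctss, the protease that trims the class II invariant chain, read 1271 to 2186 in non-transgenic mice and 4166, 1794, 7297 and 5413 in treated mice. Its fold was 2.59 (1.49 to 4.50, limma adjusted p = 0.167). Cd74, the invariant chain itself, gave another picture, with 331, 205, 234 and 74.4 in non-transgenic and 180, 70.4, 344 and 178 in treated mice. The groups overlapped widely, with a fold of 0.900 and an interval from 0.356 to 2.28 (limma adjusted p = 0.946), where vehicle-treated mice read 362 to 2045. Psmb8, an immunoproteasome subunit, read 117 to 255 and then 221, 141, 358 and 234 (fold 1.48, limma adjusted p = 0.418).

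The 23 interferon response genes had a median of 0.17 (log2) under TPPU and 0.65 under vehicle, and the first was 0.04 without treated mouse 3 and turned to -0.03 without scaling. At an unadjusted p under 0.05, 3 were higher and 1 lower, beside 13.7% and 1.01% of all genes. Slfn8, an interferon-induced gene, read 17.9 to 34.0 and then 36.2, 27.7, 52.5 and 53.5, against 82.8 to 90.8 under vehicle. Zbp1, a sensor of Z-form nucleic acid, read 12.4 to 39.2 and then 20.3 to 32.8, with groups that overlapped (fold 1.40, limma adjusted p = 0.625), where vehicle-treated mice read 49.7 to 92.7. Cxcl10, an interferon-induced chemokine, was high in treated mouse 3 alone, at 66.7 beside 20.2 to 27.8 in the others. Mb21d1, the DNA sensor cGAS, read 17.2 to 28.7 and then 30.9 to 38.4, with all 4 treated mice above, but near background. Irf3, the transcription factor downstream of that sensor, went the other way, with 400 to 475 in non-transgenic and 347 to 371 in treated mice (fold 0.828, limma adjusted p = 0.262).

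Cytokine and innate receptor genes were mixed. Of 26 tested genes of the inflammasome, cytokines and chemokines, 24 estimates were above 0, with a median of 0.39 (log2). Under quantile normalization 19 were above 0. The minimum mean took in 5xFAD mice, which favours such counts. An unadjusted p under 0.05 was found for 6, beside 13.7% of all genes. Il1a, a cytokine released by microglia, read 13.4 to 22.4 and then 40.5, 28.8, 41.6 and 44.3, so that the non-transgenic mice and treated mouse 2 were within or below the background range given for Cst7 and only treated mice 1, 3 and 4 above it. Its relative Il1b read 23.5 to 43.7 and then 22.4 to 50.4. Inflammasome genes Nlrp3 (22.4 to 37.7, then 16.0 to 52.5) and Casp1 (35.3 to 114, then 68.9 to 109) overlapped too, with limma adjusted p of 0.848 and 0.717. The estimates of Nlrp3 and Il1b were among those that turned below 0 under quantile normalization, that of Nlrp3 also without scaling. Tnfsf13b, the B-cell factor BAFF, read 17.0 to 27.7 and then 37.3, 38.4, 58.0 and 32.9. Mmp12, a macrophage elastase, read 12.9 to 16.2 and then 29.8, 22.4, 22.97 and 21.6.

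Of 24 Toll-like receptor and NF-kB genes, 2 had an unadjusted p under 0.05, Tlr2 and Cd14, beside 13.7% of all genes. The median was 0.06 (log2) as deposited but -0.03, -0.11 and -0.14 after median centring, quantile normalization and no scaling. Tlr2, the receptor for bacterial lipoproteins, read 11.9 to 26.7 in non-transgenic and 57.5, 21.3, 78.8 and 62.8 in treated mice. Tlr4, the lipopolysaccharide receptor, read 45.3 to 55.6 and then 78.9, 58.7, 73.3 and 58.7, with a fold of 1.31 (0.999 to 1.71, limma adjusted p = 0.338).

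Ctse, the protease cathepsin E, had an estimated fold of 29.7 under vehicle (9.26 to 95.4, limma adjusted p = 0.00204), over non-transgenic values that all lie in the background range, so its size is uncertain. In treated mice it read 36.2, 27.7, 479 and 43.2 beside 31.4, 32.8, 17.9 and 33.4 in non-transgenic mice. Only treated mouse 3 reached the level of vehicle-treated mice, 463 to 1780, and treated mice 1 and 4, in which most plaque-associated genes were above the non-transgenic range, read 36.2 and 43.2. The fold under TPPU was 2.38 with an interval from 0.741 to 7.63 (limma adjusted p = 0.540).

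Reactive astrocyte genes divided. Of 9 genes shared by reactive astrocytes, 3 had an unadjusted p under 0.05, beside 13.7% of all genes, and none was called without mouse 2. Their median was 0.36 (log2) under TPPU and 1.53 under vehicle. The former became 0.76 without non-transgenic mouse 1, 0.69 without treated mouse 1 and 0.89 without treated mouse 2. Serpina3n, a secreted protease inhibitor, read 377, 126, 170 and 518 in non-transgenic and 493, 433, 695 and 606 in treated mice. The non-transgenic mice themselves spread widely, and non-transgenic mouse 4 lay above treated mice 1 and 2. Within mice of high Y-linked values the Serpina3n difference was 0.31 (log2) and within the others 1.90. Vim, the intermediate filament vimentin, read 491 to 757 and then 867, 725, 1638 and 904, with a fold of 1.68 (1.06 to 2.66, limma adjusted p = 0.262) against 3.33 under vehicle. Osmr, the oncostatin M receptor, read 55.6 to 75.8 and then 86.3, 67.2, 191 and 191. Srgn, the proteoglycan serglycin, which myeloid cells also make, had a fold of 1.67 (limma adjusted p = 0.226), and S100a10, an annexin partner, of 1.33 (0.311). Lists named for the A1 and A2 astrocyte states, of 8 and 11 tested genes, had medians of 0.24 each (log2). They held 1 and 2 genes at an unadjusted p under 0.05, beside 13.7% of all genes. Without mouse 2, 1 was called in each, beside 8.49% of all genes called higher. These were Srgn and Cd14, and Cd14 is also in the Toll-like receptor list.

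S100b, a calcium-binding protein of astrocytes, behaved unlike the microglial genes in its order of mice. It read 1367, 1452, 1401 and 1221 in non-transgenic mice and 1705, 1814, 2291 and 1900 in treated mice, so that all 4 treated mice lay above and mouse 2 was not the lowest. The fold was 1.41 (1.07 to 1.86, limma adjusted p = 0.226) under TPPU and 1.32 (1.00 to 1.74, adjusted p = 0.165) under vehicle. The 9 astrocyte identity genes had a median of 0.06 (log2), which turned below 0 after median centring, quantile normalization and without scaling but not at equal totals (0.02). Slc1a3, the glutamate transporter GLAST, read 7527 to 9333 and 8003 to 8926 (fold 1.05, limma adjusted p = 0.848), and its estimate turned below 0 under the same 3 settings and was 0.03 (log2) at equal totals.

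Lipid genes near the drug's pathway were few in the table. The 7 tested genes of eicosanoid and oxylipin metabolism had a median of 0.24 (log2), which turned to -0.06 under quantile normalization. Of them, 1 had an unadjusted p under 0.05, beside 13.7% of all genes. That gene was Ptger4, a prostaglandin E2 receptor, with 13.9 to 24.2 in non-transgenic and 34.1, 20.3, 20.8 and 38.1 in treated mice (limma adjusted p = 0.300). Its difference was 1.25 (log2) within mice of high Y-linked values and -0.12 within the others. Soluble epoxide hydrolase itself was not analysed here. Of 6 oxysterol and lipid transport genes none had an unadjusted p under 0.05. Apoe, the main lipid carrier of brain, read 9283 to 11504 and then 12315, 10648, 18602 and 13552, a fold of 1.27 (0.965 to 1.67, limma adjusted p = 0.425) against 1.86 under vehicle (adjusted p = 0.00394). Ch25h, which makes 25-hydroxycholesterol, read 14.3 to 38.2 and then 34.1, 18.1, 62.4 and 50.4, and Gpr183, the receptor for its derivative, had a fold of 1.23 (limma adjusted p = 0.690).

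**Figure D5:**
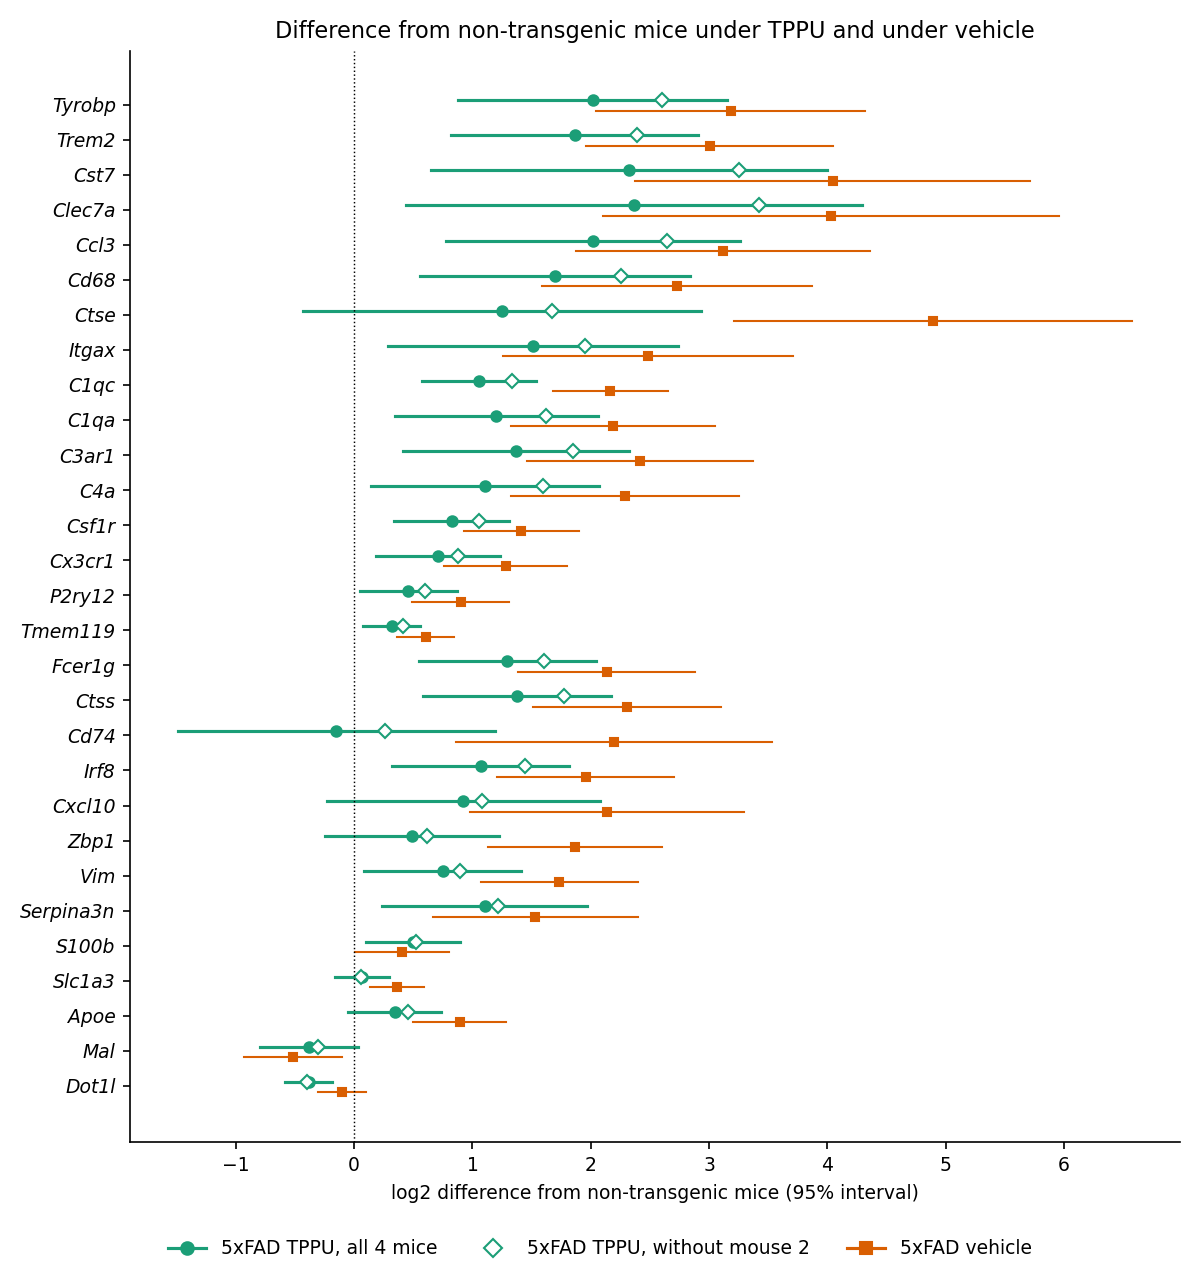
Log2 difference from non-transgenic mice (horizontal) with 95% intervals for 29 named genes (vertical), in TPPU-treated (green) and vehicle-treated (orange) 5xFAD mice, each group with 4 mice, and without TPPU-treated mouse 2 (open diamonds, no interval drawn). Ctse and Cd74 lie near or across 0 under TPPU and away from it under vehicle, and Dot1l lies below 0 under TPPU.

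Genes lower in treated mice were few, and their differences were small. Dot1l, the histone H3 lysine 79 methyltransferase, read 318, 324, 285 and 306 in non-transgenic mice and 238, 242, 228 and 235 in treated mice. The treated mice lay close together, below all non-transgenic mice and below the 270 to 307 of vehicle-treated mice. Its fold was 0.766 (0.666 to 0.881, limma adjusted p = 0.167), and 0.759 without mouse 2. Setdb1, a histone H3 lysine 9 methyltransferase, read 290 to 354 and then 272, 268, 271 and 273 (limma adjusted p = 0.300). Cdc7, a kinase that fires replication origins, read 177 to 205 and then 165, 150, 161 and 147 (0.234). Of 55 chromatin regulators, 2 were lower and 1 higher at an unadjusted p under 0.05, beside 1.01% and 13.7% of all genes. That higher one was Kdm2b, a histone demethylase, with 308 to 386 and then 400 to 445.

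Rag1, the recombinase of lymphocytes that some neurons transcribe, read 20.04 to 36.6 and then 10.7 to 21.9, a level near background. Trpm4, a calcium-activated cation channel, read 65.4 to 120 and then 45.3 to 73.5, and Abcc8, the sulfonylurea receptor, 164 to 222 and then 170, 140, 138 and 137. Vegfa, the vessel growth factor, read 981 to 1248 and then 841 to 906, and Chuk, a kinase of the NF-kB pathway, 848 to 981 and then 747 to 846. All 4 treated mice lay below all non-transgenic mice for Vegfa and Chuk, with limma adjusted p of 0.521 and 0.479. The number of genes with such a separation was 21 after median centring, 38 after quantile normalization and 68 without scaling, beside the 6 as deposited.

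The oligodendrocyte and myelin list leaned lower, with 18 of 19 estimates below 0 and none at an unadjusted p under 0.05. Its median was -0.21 (log2) under TPPU, -0.41 under vehicle and below 0 under all 5 scalings, with -0.11 without treated mouse 4 to -0.34 without treated mouse 3 when 1 mouse was left out. Per-mouse medians were -0.26, -0.29, 0.18 and -0.47 in treated mice, against -0.30 to 0.26 in non-transgenic mice, so the groups overlapped. Mal, a myelin membrane protein, read 9357, 6909, 5832 and 8353 and then 5533, 4924, 7300 and 5471 (fold 0.767, 0.576 to 1.02, limma adjusted p = 0.382). Gal3st1, which makes sulfatide, and Mobp, a structural myelin protein, had folds of 0.839 and 0.849 (limma adjusted p = 0.483 and 0.564). Within mice of high Y-linked values the list's median was -0.54 and within the others 0.08.

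Treated mouse 3, the highest of its group in all 18 plaque-associated genes, was also the highest in all 19 myelin genes and lay below all non-transgenic mice in 15 of 32 neuronal genes. Treated mouse 2 lay above all of them in 10 of the 32. Over all 695 tested genes, mouse 3 was the highest treated mouse in 325 and below all non-transgenic mice in 97. Mouse 2 lay above all non-transgenic mice in 137. What part these shifts have in the microglial values was not tested. Over the neuronal and synaptic list the median was 0.06 (log2), turning below 0 after median centring, quantile normalization and without scaling but not at equal totals (0.01). Of its 32 genes, 1 had an unadjusted p under 0.05, beside 13.7% of all genes. That gene was Shank3, a postsynaptic scaffold, with 1381 to 2099 and then 2000, 2319, 1701 and 2086. Syn2, a synaptic vesicle protein, read 14526 in treated mouse 2 and 8461 to 11645 in the others. Bdnf, a neurotrophin, read 1038 to 1413 and 943 to 1312.

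Lists of other cells' markers had medians near 0. The 10 endothelial and perivascular genes had 9 estimates below 0 and a median of -0.10 (log2), with Cldn5, a tight junction protein, at 508 to 636 and then 428, 572, 621 and 359, and Emcn, an endothelial sialomucin, at a fold of 0.808 (limma adjusted p = 0.659). The 10 tested genes of lymphocytes, neutrophils and monocytes had a median of 0.16 (log2), which turned below 0 under quantile normalization and without scaling, and none had an unadjusted p under 0.05. One border macrophage marker, Cd163, was in the table, with 23.9 to 60.1 in non-transgenic and 35.2 to 43.2 in treated mice. Of 35 apoptosis genes, 5 had an unadjusted p under 0.05, near the 13.7% of all genes, among them Bcl2a1a, Bid, a mitochondrial death activator (215 to 327, then 396, 470, 447 and 310), and Fas, a death receptor (23.3 to 43.5, then 40.5 to 47.4). Of 12 growth factor genes, 2 did, Tgfb1 and its receptor Tgfbr1 (fold 1.38, limma adjusted p = 0.300).

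Of 11 antioxidant and stress genes, all 4 treated mice lay above all non-transgenic mice in 2, and in 2 of 41 DNA damage genes, 1 of 14 autophagy genes and 0 of 7 immediate early genes, beside 6.19% of all genes. Hmox1, the haem oxygenase induced by oxidative stress, read 145, 87.3, 99.5 and 154 in non-transgenic mice and 169, 155, 205 and 222 in treated mice, a fold of 1.57 (1.07 to 2.30, limma adjusted p = 0.244). Gadd45g, a growth arrest gene, read 279 to 325 and then 408, 384, 385 and 362 (fold 1.28, limma adjusted p = 0.237). Sqstm1, an autophagy adaptor, read 5644 to 5999 and then 6086 to 6590 (fold 1.10, limma adjusted p = 0.375), which turned lower without scaling. Sod2, a mitochondrial antioxidant enzyme, read 7007 to 10032 and then 5802 to 8541. The immediate early gene Fos read 263 to 812 and then 1513, 1651, 383 and 509, high in treated mice 1 and 2. Over the lists, the median of 11 antioxidant and stress genes was 0.12 (log2), of 7 immediate early genes 0.04, of 14 autophagy genes 0.03 and of 41 DNA damage genes -0.01. Of these 4 medians the first was below 0 after quantile normalization and without scaling, and the next 2 under all 4 other scalings. At an unadjusted p under 0.05, 1 antioxidant and 1 DNA damage gene were higher and none was lower, beside 13.7% and 1.01% of all genes. No oligodendrocyte progenitor gene of the list was analysed here.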

How the data were processed

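Hippocampal RNA of 12 mice in 3 labelled groups of 4 was hybridised to an nCounter neuroinflammation panel. The deposited signal values are linear probe counts that the authors scaled by 10 housekeeping genes through their geometric mean, per the labels. Those genes were not used here, and neither the counting software nor a background correction is stated. Dividing each mouse's values by 1 factor gave whole numbers (100% within 0.01), whose totals set the counting precision.

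One linear model of log2(value + 1) over all 3 groups was fitted in limma 3.58.1 (R 4.3.3), with a prior that follows the mean and 9 residual degrees of freedom. It covered the 695 genes whose mean reached 20. Folds are on that log2 scale, which understates the change of low genes. Benjamini-Hochberg adjustment ran over all tested genes, and a gene was called at an adjusted p under 0.05. The fit was tested on simulated data. Figures were drawn with matplotlib 3.10.9.

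The comparison, the 29 gene lists and the genes named were chosen with earlier results of these data known. The text names the 12 higher and 8 lower genes with the smallest p, up to 10 genes a direction with the widest gap between the groups, the 3 members of each list with the smallest p, the 15 largest changes among genes called under vehicle, and a set chosen by role, with some left out for space. Of 756 symbols, 749 matched RefSeq symbols and 7 matched synonyms. The 32 other settings were other pseudocounts, filters, scalings, variance models, blocks and mice left out.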

Additional observations from a re-analysis of the deposited data

Results flagged for a closer look

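A mouse stood apart from the other 3 of its group by more than Dixon's 95% limit in 15 of 236 sets of 4 values, where chance gives about 1 in 20. Among non-transgenic mice, mouse 1 was highest for C1qa at 1186 and Tgfb1 at 158, mouse 2 for Vegfa at 1248 and Chuk at 981, mouse 3 for Fcrls at 367 and mouse 4 for Ttr at 16461, all in normalized counts. Non-transgenic mouse 3 was lowest for Ctse at 17.9. Among treated mice, mouse 1 was highest for Abcc8 at 170 and Mmp12 at 29.8, and mouse 3 for Ctse at 479 and Cxcl10 at 66.7. Of the lists' medians, on the log2 scale relative to the non-transgenic mean, non-transgenic mouse 1 was highest for the interferon response at 0.21 and immediate early genes at 0.23. Treated mouse 3 was lowest for neuronal and synaptic genes at -0.14, and treated mouse 2 was lowest for growth factors at 0.037.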

How the results depend on the processing

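The count of called genes was 0 in every fit that kept all 12 mice, except 55 with sample weights. It was 0 to 60 when 1 mouse was left out, 60 without treated mouse 2 and 0 in the other 11 such fits. Without treated mouse 2 it was 61 when both high-Ttr mice were dropped too, 57 after median centring, 48 after quantile normalization and 71 with sample weights, settings chosen after seeing the data, as were voom weights. Genes with an unadjusted p under 0.05 and a higher estimate numbered 95, 62 after quantile normalization, 49 without scaling and 62 to 119 with 1 mouse left out. Those with a lower estimate numbered 7, 22 after centring, 53 after quantile normalization, 17 at equal totals, 125 without scaling, 27 with sample weights, 15 without the high-Ttr mice and 3 to 13 with 1 mouse left out. Without treated mouse 2 they numbered 14 when the high-Ttr mice were dropped, 25 after centring, 73 after quantile normalization and 13 with sample weights.

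Genes with all treated mice above all non-transgenic mice numbered 43, 20 after quantile normalization, 28 at equal totals, 7 without scaling, 71 without the high-Ttr mice and 43 to 127 with 1 mouse left out. Without treated mouse 2 they numbered 154 when the high-Ttr mice were dropped, 97 after centring, 65 after quantile normalization and 127 with sample weights. Genes with all treated mice below numbered 6, 21 after centring, 38 after quantile normalization, 11 at equal totals, 68 without scaling, 17 without the high-Ttr mice and 6 to 22 with 1 mouse left out. Without treated mouse 2 they numbered 24, 38, 92 and 10 in the same order. With fewer mice, fewer must be apart. The cause of the other moves was not tested.

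Of 92 named genes, 84 kept their direction under every one of the 32 settings that gave them a value. At a mean of at least 50, 13 had none. Slc1a3 turned to -0.013 after centring, -0.0020 after quantile normalization, -0.13 without scaling and -0.060 after centring without treated mouse 2. Ttr turned to 0.22 without the high-Ttr mice, 0.25 without treated mouse 2 too and, over fits without 1 mouse, ranged from -2.35 to 0.22, the latter without non-transgenic mouse 4. Sqstm1 was -0.057 without scaling, Casp1 -0.060 after quantile normalization without treated mouse 2, and Fos -0.079 without the high-Ttr mice and treated mouse 2. Nlrp3 was -0.13 after quantile normalization, -0.0047 without scaling and -0.043 (without treated mouse 4) to 0.51 over fits without 1 mouse. Il1b was -0.12 after quantile normalization and -0.0063 after it without treated mouse 2. Cd74 was 0.14 and 0.021 without treated mouse 2 after centring and quantile normalization, 0.13 without non-transgenic mouse 1, and -0.59 to 0.26 over fits without 1 mouse, the latter without treated mouse 2.

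With the mouse number as a replicate block, 0 genes were called by limma, 105 had an unadjusted p under 0.05 and a higher estimate and 5 a lower one. Deviations of same-numbered mice of both groups correlated at 0.0598 to 0.247, and 3 of 4 treated mice correlated best with their own number. Since the labels name nothing shared by number and 1 of the 4 pairs lay under 0.1, the main fit has no such block. A count test with 2 scalings was not run, since the deposited values were treated as normalized signal. The recovered whole counts did serve the fits with voom weights, equal totals and no scaling. No lymphocyte, neutrophil or monocyte gene reached a mean of 50, so that list has no median there.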
